A study of Mus musculus with 4 samples.

Results

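The TGF-beta and BMP signalling genes were followed in brown adipose tissue (BAT) of 4 mice, as 52 genes chosen by name from the 55387 rows listed for each library. They are ligands of the TGF-beta, BMP, GDF and activin families, the latent TGF-beta binding proteins, the receptors, the Smad proteins, inhibitors and the Id genes. Of the 52, 39 had a mean above 1 FPKM in one genotype or both and could be tested, and 13 were below that level. FPKM counts sequenced fragments per kilobase of transcript and relative to all mapped fragments, so levels of different genes can be set side by side. The study deleted the transcription factor gene Sox4 in the precursors of brown fat and compared the tissue with that of littermates.

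The control genotype was Sox4f/f, a floxed allele without Cre recombinase, which the sample labels call WT. The other genotype, Sox4-MKO, carried the same floxed allele and a Cre recombinase driven by Myf5, which is active in the lineage of brown adipocytes and skeletal muscle. By this design, cell types outside that lineage would keep Sox4, which was not measured here. Which part of the gene is removed is not given in the sources used here. All mice were males aged 15 weeks on the C57BL/6 background, with 2 mice per genotype and 1 library per mouse, each of an estimated 12100000 to 16200000 fragments. The labels name adipocytes, and the methods describe whole brown fat.

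Ligands of this superfamily bind pairs of type I and type II receptor kinases. TGF-beta and activin receptors act mainly through Smad2 and Smad3, BMP receptors through Smad1, Smad5 and Smad9, and both branches share Smad4, while Smad6 and Smad7 inhibit the signal. In adipose tissue, BMP ligands are known to favour the commitment and differentiation of brown adipocytes, whereas TGF-beta is known as an inhibitor of adipogenesis and an inducer of matrix genes. The Id genes, which encode proteins that block basic helix-loop-helix factors, are standard targets of BMP signalling.

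Sox4, the deleted gene, was not lower in the libraries labelled Sox4-MKO. It had 1.98 and 1.06 FPKM in Sox4f/f mice 1 and 2 and 0.98 and 3.06 FPKM in mice 1 and 2 labelled Sox4-MKO. The genotypes overlapped, and the log2 fold change and its standard error were 0.20 ± 0.43 (adjusted p = 0.843 by limma). Leaving out Sox4-MKO mouse 2 gave -0.32, and leaving out Sox4-MKO mouse 1 gave 0.71. By western blot, the paper reports much less SOX4 protein in BAT of younger Sox4-MKO mice. That is a measure of protein in other mice, and the values here are RNA. Every direction given below follows the labels, and those libraries are called the libraries labelled Sox4-MKO.

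The windows before the RefSeq start sites (GRCm38.p6) of the members that moved or belong to the Id group are shown for the letters that Smad proteins are known to bind. RefSeq windows were found for 37 of the 52 genes, and neither Id1 nor Fst has an entry. Each window is the 250 bases before the start, of which only bases that lie ahead of any GENCODE M21 exon of the gene within the window are printed, 5′ to 3′ on the strand of the gene. Capitals mark GGCGCC, the core of the BMP-responsive element, or CAGAC and its reverse complement GTCTG, a Smad sequence of the CAGA type.
Id2, chr12:25096254-25096342, minus strand: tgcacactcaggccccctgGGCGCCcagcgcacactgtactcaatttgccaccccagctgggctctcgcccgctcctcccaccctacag
Smad1, chr8:79399519-79399678, minus strand: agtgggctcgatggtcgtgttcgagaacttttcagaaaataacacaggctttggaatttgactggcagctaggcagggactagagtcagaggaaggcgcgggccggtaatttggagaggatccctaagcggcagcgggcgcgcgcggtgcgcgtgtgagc
Gdf10, chr14:33923337-33923586, plus strand: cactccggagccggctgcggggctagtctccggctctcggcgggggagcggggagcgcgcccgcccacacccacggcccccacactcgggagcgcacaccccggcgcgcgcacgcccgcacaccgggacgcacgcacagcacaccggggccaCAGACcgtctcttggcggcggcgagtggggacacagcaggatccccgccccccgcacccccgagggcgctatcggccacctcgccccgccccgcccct
Ltbp1, chr17:75005279-75005528, plus strand: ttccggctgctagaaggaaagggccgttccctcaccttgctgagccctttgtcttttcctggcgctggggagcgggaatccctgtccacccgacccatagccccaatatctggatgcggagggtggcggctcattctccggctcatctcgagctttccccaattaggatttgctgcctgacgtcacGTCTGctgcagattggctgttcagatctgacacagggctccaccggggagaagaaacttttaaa
In Id2, the GGCGCC match begins 231 bases before the start, and the printed bases lie in an intron of the longest GENCODE transcript of the gene. The CAGAC match begins 98 bases before the start of Gdf10, and the GTCTG match 64 bases before that of Ltbp1, whose more upstream RefSeq start was used. The Smad1 window holds neither sequence. The window of Id3 lies within an annotated exon and is not shown. The 37 genes have 46 windows. GGCGCC was present in 10 of the 46, from 9 genes (Bmpr1a, Bmpr2, Chrd, Grem1, Id2, Ltbp4, Smad5, Smad9 and Tgfbr1) and in 9.59% of all 32851 windows, and CAGAC on either strand in 22 of the 46, from 20 genes, and in 42.2% of all windows. The Sox-type sequence AACAAT, searched on both strands, was present in 4 of the 46 windows, from 3 genes (Acvr1c, Bmpr1b and Smad6), and in 9.42% of all windows, and the form AACAAAG in 6 of the 46, from 4 genes (Acvr1c, Bmpr1b, Inhba and Tgfb2), and in 5.03% of all windows. These matches describe the letters of the windows only.

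Most of the pathway was expressed in brown fat at low or moderate levels. Averaged over the 4 libraries, 37 of the 52 genes were above 1 FPKM, 17 above 10 FPKM and 3 above 50 FPKM, namely Id1, Id3 and Ltbp3. The median of the 39 genes tested was 7.25 FPKM, against 8.82 FPKM over all 12877 genes tested. In each of the 4 libraries Tgfbr2, the type II receptor of TGF-beta, was 5.54, 7.69, 6.88 and 5.14 times as abundant as Tgfbr1, the type I receptor. Id1 exceeded every ligand and receptor among the 52 genes in each library, as the plot of levels by library shows. The median difference between mice of one genotype was 0.18 in Sox4f/f and 0.17 in the libraries labelled Sox4-MKO on the log2(FPKM + 1) scale, against 0.19 and 0.23 over all genes tested.

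**Figure D1:**
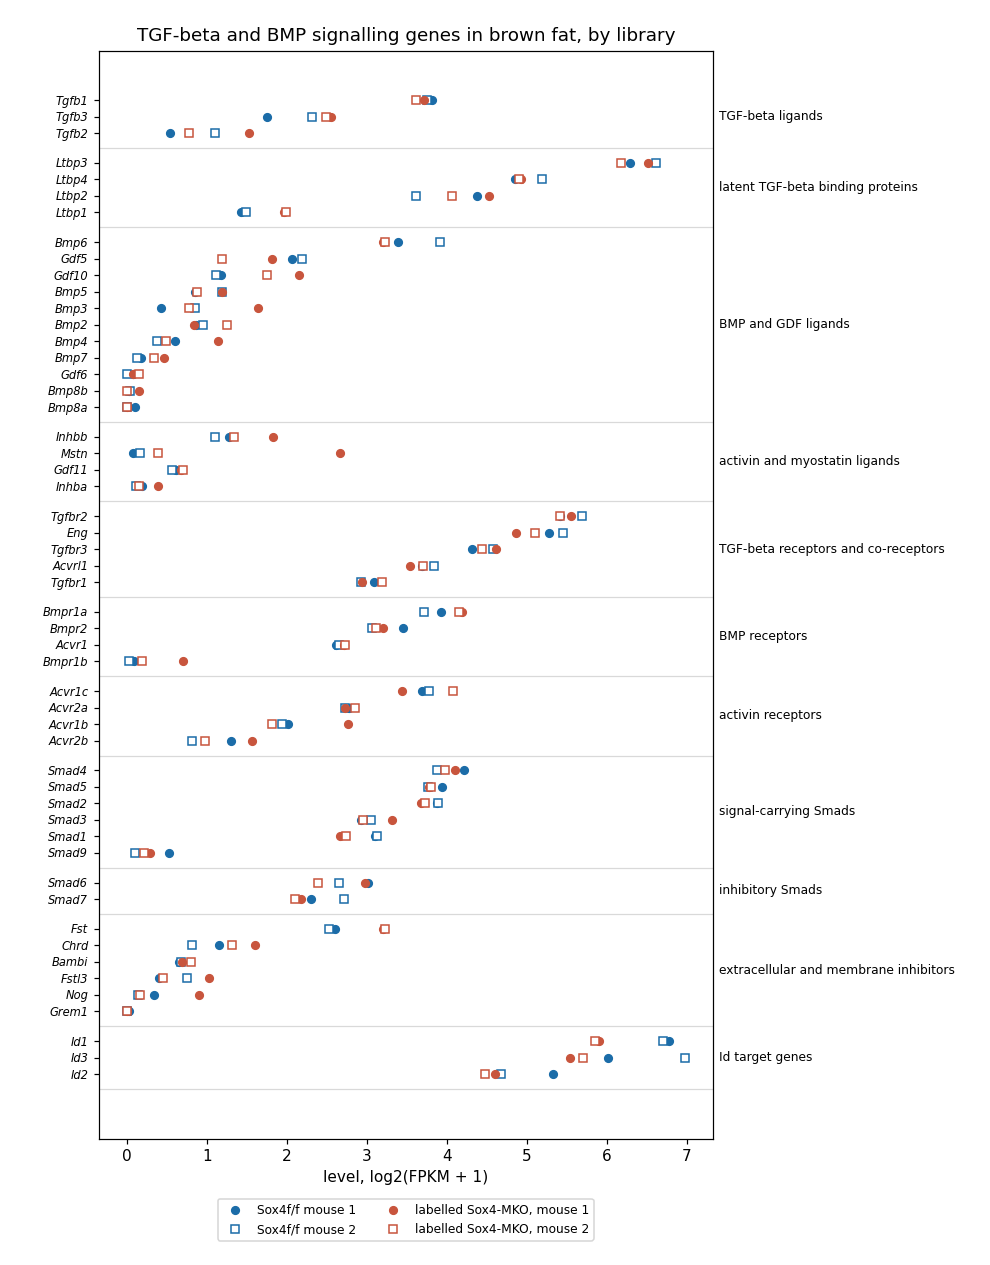
Level of each of the 52 TGF-beta and BMP signalling genes in each library, as log2(FPKM + 1) on the horizontal axis, with genes grouped by role. Blue marks are Sox4f/f mice, red marks are libraries labelled Sox4-MKO, circles are mouse 1 and squares mouse 2; in the Id group at the bottom all red marks lie to the left of the blue ones, and Mstn of Sox4-MKO mouse 1 stands apart at 5.34 FPKM.

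Between the genotypes, 5 of the 39 genes tested had an unadjusted p under 0.05, 2 lower and 3 higher in the libraries labelled Sox4-MKO. The genes that fell were Id1 and Smad1, and those that rose were Fst, Gdf10 and Ltbp1. This was 12.8% of the genes, against 16.2% of all 12877 genes tested (8.28% lower and 7.95% higher), a share near that of all genes. After Benjamini-Hochberg adjustment none of the 12877 genes was under 0.05 by limma, where 2090 had an unadjusted p under 0.05, and the smallest adjusted p was 0.191. After rescaling to a common sum without mitochondrially encoded genes and Ucp1, the split of all genes moved from 1066 lower and 1024 higher to 746 lower and 1322 higher, and that of the pathway to 1 lower and 4 higher, with Smad1 no longer called and Bmpr1a called. Without Sox4-MKO mouse 1, the log2 fold changes were -0.89 for Id1, -0.37 for Smad1, 0.67 for Fst, 0.61 for Gdf10 and 0.53 for Ltbp1. The median log2 fold change of the 39 genes was 0.02, or -0.07 without Sox4-MKO mouse 1, against -0.05 over all genes. The genotypes did not overlap at 19 of the 39 genes, 10 lower and 9 higher, and at 51.3% of all genes (29.6% lower and 21.7% higher). Of the 39, 5 passed the level of 1 FPKM only through the libraries labelled Sox4-MKO, namely Tgfb2, Bmp2, Bmp3, Mstn and Chrd. Each of them had a positive log2 fold change, and Mstn and Chrd are among the 9. Their direction is therefore not support for a rise, and they also enter the median. For a single gene, the smallest p of an exact permutation test (two-sided) with 2 mice per genotype is 0.333.

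**Figure D2:**
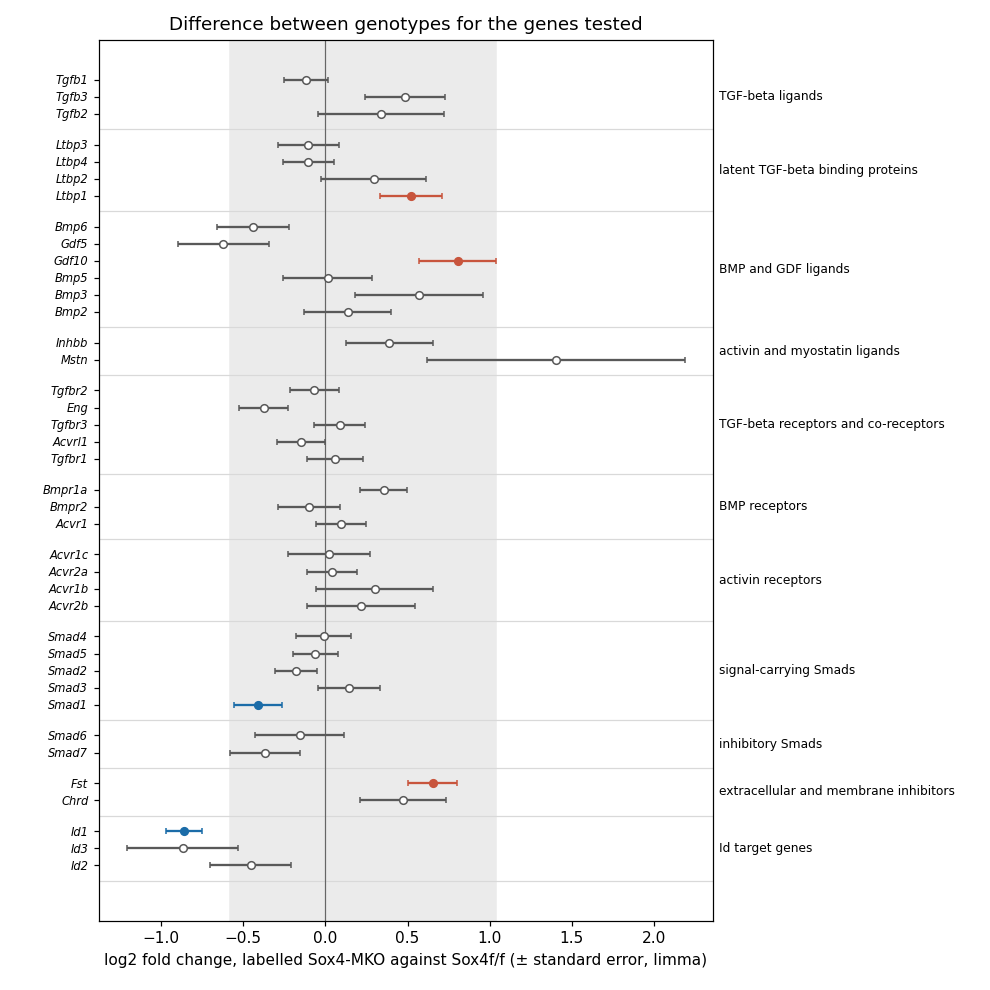
Log2 fold change of the 39 genes tested, libraries labelled Sox4-MKO against Sox4f/f, with bars of 1 standard error from limma (n = 2 mice per genotype) and genes grouped by role. Filled blue and red points have an unadjusted p under 0.05, open points do not, and the grey band spans the 5th to 95th percentile of all 12877 genes tested, from -0.58 to 1.04; 4 genes lie outside it.

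All 3 Id genes were lower in every library labelled Sox4-MKO than in every Sox4f/f library, as were 29.6% of all genes tested. Of the 3, 1 passed the test, Id1. Id1 spans 152736251 to 152737410 of chromosome 2 (GRCm38, plus strand). It had 109 and 103 FPKM in Sox4f/f and 58.9 and 56.8 FPKM in those labelled Sox4-MKO. Mice of one genotype were close together, and the ratio of the means was 0.545. Id1 changed by -0.86 ± 0.11 on the log2 scale (adjusted p = 0.191 by limma), and it lay between -0.90 and -0.82 with each library left out in turn, with an unadjusted p under 0.05 each time. In such a refit 1 genotype has a single library, so the spread comes from the mice of the other genotype and the prior of limma, and the lone library is assumed to vary like them; this holds for every p with a library left out. In bulk tissue, fewer cells of a type and less RNA per cell cannot be told apart, here and in the results that follow.
Id3, on chromosome 4 from 136143497 to 136145755, encodes a close relative of Id1. It had 63.6 and 125 FPKM in Sox4f/f and 45.6 and 51.3 FPKM in those labelled Sox4-MKO. The Sox4f/f mice differed by 1.97 times, and the log2 fold change of -0.87 ± 0.34 did not pass the test (adjusted p = 0.315 by limma). It was -1.35 without Sox4f/f mouse 1, where its unadjusted p was under 0.05, and -0.39 without Sox4f/f mouse 2.
Id2, on chromosome 12 from 25093799 to 25097140, carries the GGCGCC match shown above. It had 39.1 and 24.5 FPKM in Sox4f/f and 23.4 and 21.3 FPKM in those labelled Sox4-MKO. The lower Sox4f/f mouse was close to the other genotype, and the log2 fold change was -0.46 ± 0.25 (adjusted p = 0.425 by limma). It was -0.13 without Sox4f/f mouse 1 and -0.78 without Sox4f/f mouse 2, where its unadjusted p was under 0.05.

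Of the Smad proteins that carry the signal, Smad1 of the BMP branch fell and the others did not pass the test. Smad1 lies on chromosome 8 from 79338395 to 79399518 on the minus strand. It had 7.58 and 7.78 FPKM in Sox4f/f and 5.36 and 5.70 FPKM in those labelled Sox4-MKO. The genotypes were apart by more than the spread between mice, with a log2 fold change of -0.41 ± 0.15 (adjusted p = 0.290 by limma). Its unadjusted p was above 0.05 with any of the 4 libraries left out, although the log2 fold change stayed between -0.45 and -0.37.
Smad5, which acts in the same branch, overlapped between the genotypes, with 14.3 and 12.6 FPKM against 12.7 and 13.0 FPKM. Smad9, the third Smad of that branch, was at most 0.438 FPKM in any library. Smad2 of the TGF-beta and activin branch had 13.6 and 13.8 FPKM in Sox4f/f and 11.8 and 12.3 FPKM in those labelled Sox4-MKO, without overlap, and a log2 fold change of -0.18 ± 0.13 (adjusted p = 0.521 by limma). Its partner Smad3 had 6.59 and 7.32 FPKM against 8.97 and 6.74 FPKM, and the shared Smad4 had 17.5 and 13.8 FPKM against 16.1 and 14.7 FPKM. Neither Smad3 nor Smad4 separated the genotypes.
The inhibitory Smads are themselves induced by the pathway and limit it. Smad7 had 3.95 and 5.56 FPKM in Sox4f/f and 3.52 and 3.31 FPKM in those labelled Sox4-MKO. The genotypes did not overlap, but the log2 fold change of -0.37 ± 0.21 did not pass the test (adjusted p = 0.444 by limma). Smad6 overlapped, with 7.07 and 5.31 FPKM against 6.85 and 4.22 FPKM.

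**Figure D3:**
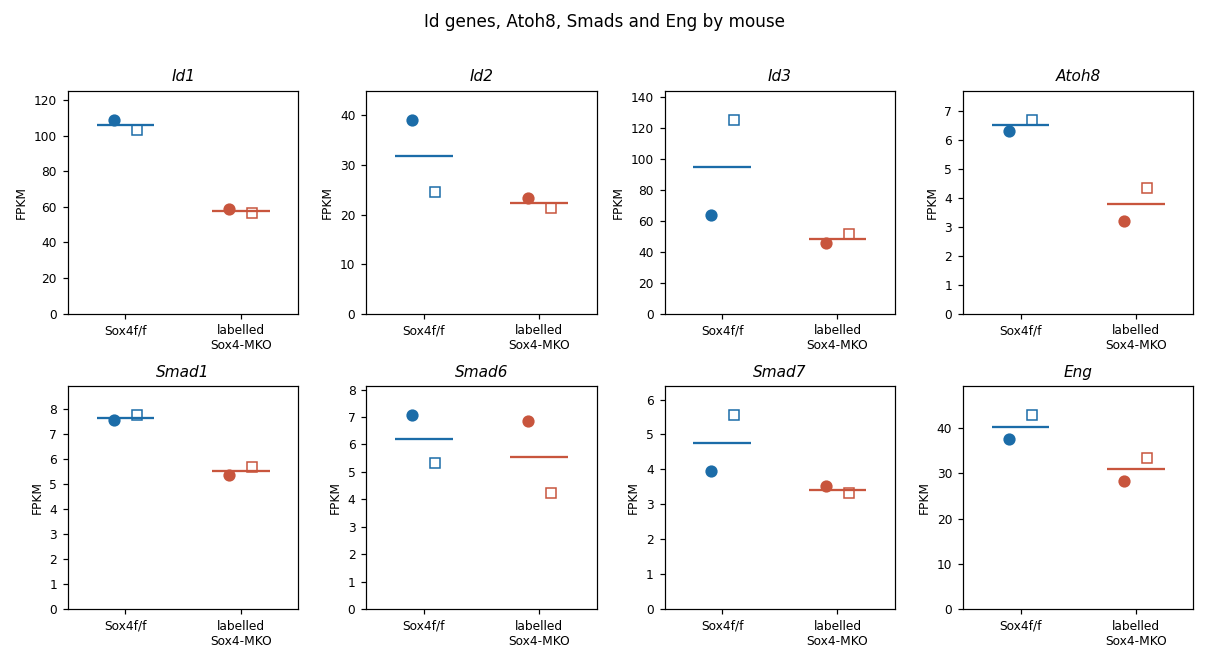
FPKM of Id1, Id2, Id3, Atoh8, Smad1, Smad6, Smad7 and Eng in each mouse, with a horizontal line at the mean of each genotype (n = 2); circles are mouse 1, squares mouse 2, and each vertical axis starts at 0. Id1, Atoh8 and Smad1 keep the genotypes apart with little spread within them, Id3 has Sox4f/f mice at 63.6 and 125 FPKM, and Smad6 overlaps.

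Among the secreted inhibitors, Fst rose. Fst encodes follistatin, which binds activins and myostatin, and lies on chromosome 13 from 114452290 to 114458951 on the minus strand. It had 5.06 and 4.75 FPKM in Sox4f/f and 8.17 and 8.39 FPKM in those labelled Sox4-MKO. Both libraries of one genotype lay well apart from both of the other, with a ratio of the means of 1.69. The log2 fold change was 0.65 ± 0.15 (adjusted p = 0.214 by limma), and it lay between 0.61 and 0.69 with each library left out, although its unadjusted p was above 0.05 without Sox4f/f mouse 2.
Chrd, which encodes the BMP antagonist chordin, had 1.23 and 0.756 FPKM in Sox4f/f and 2.04 and 1.48 FPKM in those labelled Sox4-MKO. It passed the level of 1 FPKM only through the latter, and its log2 fold change of 0.47 ± 0.26 did not pass the test (adjusted p = 0.432 by limma). The other inhibitors were below the tested level in both genotypes. The BMP antagonists Nog and Grem1 and the activin inhibitor Fstl3 had at most 0.872, 0.0146 and 1.03 FPKM in any library, and Bambi, a receptor-like protein without kinase activity, at most 0.748 FPKM.

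Of the BMP and GDF ligands, Gdf10 rose, and Bmp6 and Gdf5 were lower without passing the test. Gdf10, also called BMP3B, lies on chromosome 14 from 33923587 to 33937983 on the plus strand. It had 1.27 and 1.16 FPKM in Sox4f/f and 3.43 and 2.38 FPKM in those labelled Sox4-MKO, from an estimated 73 to 226 fragments. The ratio of the means was 2.40. The log2 fold change of 0.81 ± 0.23 (adjusted p = 0.243 by limma) lay between 0.61 and 1.00 with each library left out, and it did not pass with either Sox4f/f library left out.
Bmp6, a BMP ligand also known for its part in iron sensing, had 9.50 and 14.1 FPKM in Sox4f/f and 8.20 and 8.35 FPKM in those labelled Sox4-MKO. The Sox4f/f mice differed from each other by 1.49 times, and the log2 fold change of -0.44 ± 0.22 (adjusted p = 0.390 by limma) passed the test only without Sox4f/f mouse 1.
Gdf5, a ligand with a known role in joint formation, had 3.17 and 3.55 FPKM in Sox4f/f and 2.51 and 1.28 FPKM in those labelled Sox4-MKO. Its log2 fold change of -0.62 ± 0.28 (adjusted p = 0.355 by limma) had an unadjusted p under 0.05 without Sox4-MKO mouse 1 and after quantile normalization.
Bmp2, Bmp3 and Bmp5 were near 1 FPKM and overlapped between the genotypes. Bmp2 and Bmp3 passed the level of 1 FPKM only through the libraries labelled Sox4-MKO, and Bmp3, a ligand known to dampen BMP signalling, had 2.11 and 0.71 FPKM there against 0.343 and 0.798 FPKM in Sox4f/f (log2 fold change 0.57 ± 0.39, or 1.00 without Sox4-MKO mouse 2). Bmp2 had 0.825 and 0.927 FPKM against 0.789 and 1.37 FPKM, and Bmp5 had 0.799 and 1.28 FPKM against 1.28 and 0.840 FPKM.
The 5 BMP and GDF ligands below the tested level were Bmp4, Bmp7, Bmp8a, Bmp8b and Gdf6, and the highest single value among them was 1.20 FPKM for Bmp4 in Sox4-MKO mouse 1. Bmp7, a ligand known to promote brown adipogenesis, had 0.127 and 0.09 FPKM in Sox4f/f and 0.384 and 0.267 FPKM in those labelled Sox4-MKO, from an estimated 4 to 18 fragments. Bmp8a, Bmp8b and Gdf6 were listed at 0 in at least 1 library, as was Grem1. Bmp8a and Bmp8b are near-identical neighbours, so reads may be split between them and their levels are uncertain.

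The TGF-beta ligands themselves did not pass the test. Tgfb1, the most abundant ligand of the 3, had 13.1 and 12.5 FPKM in Sox4f/f and 12.2 and 11.3 FPKM in those labelled Sox4-MKO, for a log2 fold change of -0.12 ± 0.13 (adjusted p = 0.684 by limma). Tgfb3 had 2.38 and 3.96 FPKM against 4.85 and 4.62 FPKM, for a log2 fold change of 0.49 ± 0.25 (adjusted p = 0.398 by limma) that passed without Sox4f/f mouse 2. The genotypes were apart at both genes, in opposite directions. Tgfb2 overlapped, with 0.454 and 1.14 FPKM against 1.89 and 0.718 FPKM, and passed the level of 1 FPKM only through the libraries labelled Sox4-MKO.
Of the 4 latent TGF-beta binding proteins by name, 1 rose, Ltbp1, where 7.95% of all genes tested rose. Its product tethers the ligand to the matrix until it is activated. Ltbp1 lies on chromosome 17 from 75005568 to 75392512 on the plus strand. It had 1.68 and 1.81 FPKM in Sox4f/f and 2.90 and 2.97 FPKM in those labelled Sox4-MKO, with no overlap and a ratio of the means of 1.68. The log2 fold change was 0.52 ± 0.19 (adjusted p = 0.293 by limma), between 0.49 and 0.55 with each library left out, but no unadjusted p of these refits was under 0.05.
The other members of the group were far more abundant and overlapped. Ltbp3 had 77.3 and 97.0 FPKM in Sox4f/f and 90.7 and 71.4 FPKM in those labelled Sox4-MKO, Ltbp4 had 28.0 and 35.4 FPKM against 29.6 and 28.9 FPKM, and Ltbp2 had 19.9 and 11.3 FPKM against 22.1 and 15.7 FPKM.

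**Figure D4:**
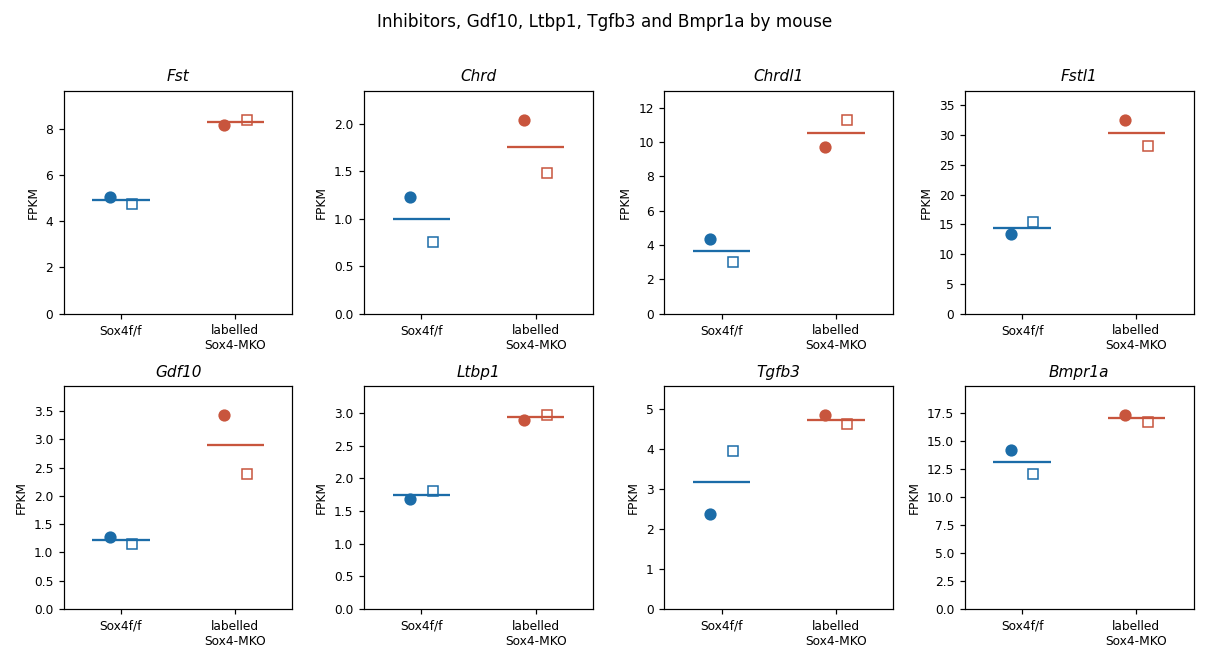
FPKM of Fst, Chrd, Chrdl1, Fstl1, Gdf10, Ltbp1, Tgfb3 and Bmpr1a in each mouse, with a horizontal line at the mean of each genotype (n = 2); circles are mouse 1, squares mouse 2, and each vertical axis starts at 0. In all 8 panels both libraries labelled Sox4-MKO lie above both Sox4f/f libraries, because genes that were higher were picked for this figure. The same order holds for 21.7% of all genes tested. Chrd, Tgfb3 and Bmpr1a did not pass the test, and Chrd passed the level of 1 FPKM only through the libraries labelled Sox4-MKO.

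The activin and myostatin ligands were low. Mstn encodes myostatin, a ligand made mainly by skeletal muscle that limits muscle growth. It had 0.0555 and 0.124 FPKM in Sox4f/f and 5.34 and 0.313 FPKM in those labelled Sox4-MKO. Almost all of its signal came from Sox4-MKO mouse 1, the library with the highest sum of skeletal muscle markers, with an estimated 183 fragments against 2 to 14 in the other libraries, and the log2 fold change of 1.41 ± 0.79 (adjusted p = 0.435 by limma) was 0.27 without that mouse and 2.54 without Sox4-MKO mouse 2. Mstn passed the level of 1 FPKM only through Sox4-MKO mouse 1. Inhbb, a subunit of activin B that is also made by adipocytes, had 1.43 and 1.16 FPKM against 2.56 and 1.53 FPKM, for a log2 fold change of 0.39 ± 0.27 (adjusted p = 0.504 by limma). Gdf11 and Inhba were below the tested level, with at most 0.629 and 0.307 FPKM.

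None of the receptors passed the test. Bmpr1a, a type I receptor and the most abundant of the 4 BMP receptors, had 14.2 and 12.1 FPKM in Sox4f/f and 17.3 and 16.8 FPKM in those labelled Sox4-MKO. The genotypes did not overlap, and the log2 fold change of 0.36 ± 0.14 (adjusted p = 0.324 by limma) had an unadjusted p under 0.05 only after quantile normalization, the common sum and the FPKM limit of 5. The related receptor Acvr1 had 5.11 and 5.27 FPKM against 5.59 and 5.63 FPKM, and the type II receptor Bmpr2 overlapped, with 9.94 and 7.38 FPKM against 8.23 and 7.67 FPKM. Bmpr1b was below the tested level, with 0.0647 and 0.0145 FPKM in Sox4f/f and 0.627 and 0.139 FPKM in those labelled Sox4-MKO.
Eng encodes endoglin, a co-receptor of endothelial cells. It had 37.7 and 42.9 FPKM in Sox4f/f and 28.3 and 33.5 FPKM in those labelled Sox4-MKO, without overlap. Its log2 fold change of -0.38 ± 0.15 did not pass the test (adjusted p = 0.319 by limma), although it did without Sox4-MKO mouse 2. Acvrl1, the type I receptor that works with endoglin, had 11.9 and 13.3 FPKM against 10.6 and 12.0 FPKM and overlapped.
Among the TGF-beta receptors, Tgfbr1 had 7.52 and 6.62 FPKM in Sox4f/f and 6.71 and 8.14 FPKM in those labelled Sox4-MKO, Tgfbr2 had 41.7 and 50.9 FPKM against 46.1 and 41.8 FPKM, and the co-receptor Tgfbr3 had 19.0 and 22.8 FPKM against 23.6 and 20.8 FPKM. All 3 overlapped between the genotypes.
The activin receptors overlapped too. Acvr1c, the type I receptor ALK7 that is abundant in adipocytes, had 12.0 and 12.7 FPKM in Sox4f/f and 9.84 and 15.9 FPKM in those labelled Sox4-MKO. Acvr1b had 3.06 and 2.85 FPKM against 5.78 and 2.50 FPKM, for a log2 fold change of 0.30 that became 0.78, with an unadjusted p under 0.05, without Sox4-MKO mouse 2. In both genes the mice labelled Sox4-MKO lay on either side of the Sox4f/f mice. The type II receptors were steadier in Acvr2a, with 5.60 to 6.22 FPKM over the 4 libraries, than in the less abundant Acvr2b, with 0.761 to 1.95 FPKM.

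Beyond the 52 genes, 101 further genes of the pathway were present in 5 lists. Of these, 67 were tested and 15 were called, 3 lower and 12 higher, or 22.4% against 16.2% of all genes. These lists were chosen with earlier results of these data known, so no conclusion is drawn from this share. Among the 12 is Itgb6, which passed the level of 1 FPKM only through the libraries in which it was high. Of 20 intracellular regulators tested, such as Ski and Skil, none was called in either direction. Of 10 secreted inhibitors tested, none fell and 5 rose. Of 14 co-receptors and ligand activators, 2 fell and 2 rose, and of 20 transcriptional targets, 1 fell and 4 rose. Of 3 other ligands by name, 1 rose, Bmp1, which in spite of its name is a protease that processes procollagen and chordin and not a ligand; it had 6.69 and 5.83 FPKM in Sox4f/f and 9.75 and 8.15 FPKM in those labelled Sox4-MKO (log2 fold change 0.45 ± 0.17, adjusted p = 0.303 by limma).

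Among the secreted inhibitors, Chrdl1, a chordin-like antagonist of BMP ligands, had 4.35 and 2.99 FPKM in Sox4f/f and 9.72 and 11.3 FPKM in those labelled Sox4-MKO. Its log2 fold change was 1.31 ± 0.21 (adjusted p = 0.196 by limma). Fstl1, a secreted follistatin-like protein, had 13.4 and 15.5 FPKM against 32.6 and 28.2 FPKM, for a log2 fold change of 1.02 ± 0.15 (adjusted p = 0.196 by limma). Dcn, which encodes decorin, a matrix proteoglycan that binds collagen and TGF-beta, had 118 and 155 FPKM against 267 and 239 FPKM (log2 fold change 0.90 ± 0.17, adjusted p = 0.202 by limma). The other members that rose were Nbl1 and Gpc3, with log2 fold changes of 0.62 and 0.55.
Of the transcriptional targets, Atoh8, a helix-loop-helix factor induced by BMP signalling, fell, with 6.33 and 6.71 FPKM in Sox4f/f and 3.22 and 4.35 FPKM in those labelled Sox4-MKO (log2 fold change -0.66 ± 0.19, adjusted p = 0.243 by limma). The targets that rose were matrix genes. Fn1, which encodes fibronectin, had 7.09 and 8.90 FPKM against 29.1 and 21.9 FPKM, for a log2 fold change of 1.55 ± 0.20 (adjusted p = 0.191 by limma). The collagen genes Col3a1 and Col1a1 had log2 fold changes of 1.38 and 1.33 and the matrix gene Tgfbi one of 0.78, without overlap between the genotypes. The target gene Ccn2, which TGF-beta is known to induce, overlapped, with 2.64 and 7.10 FPKM against 4.43 and 7.61 FPKM.
Of the co-receptors and activators, Hjv, which encodes hemojuvelin, a BMP co-receptor made by skeletal muscle and liver, had 1.49 and 3.56 FPKM in Sox4f/f and 73.4 and 14.9 FPKM in those labelled Sox4-MKO (log2 fold change 3.35 ± 0.80, adjusted p = 0.214 by limma). Itgb6, a subunit of an integrin that activates latent TGF-beta, had 0.029 and 0.367 FPKM against 3.25 and 1.29 FPKM, for a log2 fold change of 1.39 ± 0.40 (adjusted p = 0.241 by limma). It passed the level of 1 FPKM only through the libraries in which it was high, so its place among the genes that rose is not support for a direction. Both Hjv and Itgb6 were highest in Sox4-MKO mouse 1. Nrp1, which encodes neuropilin-1, a co-receptor shared with VEGF and semaphorins, fell from 74.5 and 75.1 FPKM to 50.6 and 54.2 FPKM (log2 fold change -0.51 ± 0.11, adjusted p = 0.214 by limma). Furin, the protease that cleaves many ligand precursors, fell from 38.0 and 36.2 FPKM to 26.0 and 29.0 FPKM (log2 fold change -0.42 ± 0.13, adjusted p = 0.245 by limma). With 1 library left out, the unadjusted p of Bmp1 was above 0.05 in each case, that of Furin and Atoh8 without either Sox4f/f mouse or Sox4-MKO mouse 1, that of Itgb6 without either Sox4f/f mouse and that of Hjv without Sox4f/f mouse 1. The median log2 fold change of all 67 genes was 0.09, against -0.05 over all genes tested, and it was 0.0016 without Sox4-MKO mouse 1. Of the 67, 8 passed the level of 1 FPKM in 1 genotype only.

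Markers of other cell types differed between the libraries alongside these genes. Over all genes tested, 8.28% fell and 7.95% rose. The sum of 16 skeletal muscle markers, none of them at 0, was 285 and 976 FPKM in Sox4f/f and 17769.5 and 3612 FPKM in those labelled Sox4-MKO, and 15 of the 16 rose. Mstn and Hjv had the same order of libraries as this sum. The sum of 11 fibroblast and progenitor markers was 428 and 459 FPKM in Sox4f/f and 948 and 871 FPKM in those labelled Sox4-MKO, 10 of 11 rose, and the list shares Dcn, Col1a1 and Col3a1 with the lists above. Fst, Gdf10, Ltbp1, Chrdl1, Fstl1 and Fn1 were higher in the same libraries, and they are named here because they were higher. Dlk1 of the fibroblast and progenitor list went the other way without passing the test. It had 2.20 and 2.94 FPKM in Sox4f/f and 1.99 and 1.73 FPKM in those labelled Sox4-MKO.
The sum of 10 endothelial markers was 355 and 439 FPKM in Sox4f/f and 249 and 316 FPKM in those labelled Sox4-MKO, and 2 of the 10 fell and none rose. Without Egfl7, the most abundant of them, the other 9 summed to 231 and 315 FPKM in Sox4f/f and 171 and 244 FPKM in those labelled Sox4-MKO, which overlap, and 6 of the 10 markers overlapped singly. Eng, Nrp1, Id1 and Atoh8, which endothelial cells are known to express, were lower in the same libraries. These genes are named here because they were lower. By contrast, Acvrl1, which works with endoglin, overlapped, and the endothelial markers Emcn and Vwf had log2 fold changes of 0.30 and 0.17. The sum of 10 brown adipocyte markers, all of them present in each library, was 8182 and 7947 FPKM in Sox4f/f and 4183 and 4808 FPKM in those labelled Sox4-MKO, and 6 of the 10 fell. The sum of 10 macrophage markers was 144 and 222 FPKM against 291 and 307 FPKM, and 6 of the 10 rose. Among the markers that rose, Dpp4 of the fibroblast list and Fcgr1 of the macrophage list passed the level of 1 FPKM only through the libraries labelled Sox4-MKO. No marker of these 5 lists was listed at 0 in any library. The part of these cell types in the results above was not tested.

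**Figure D5:**
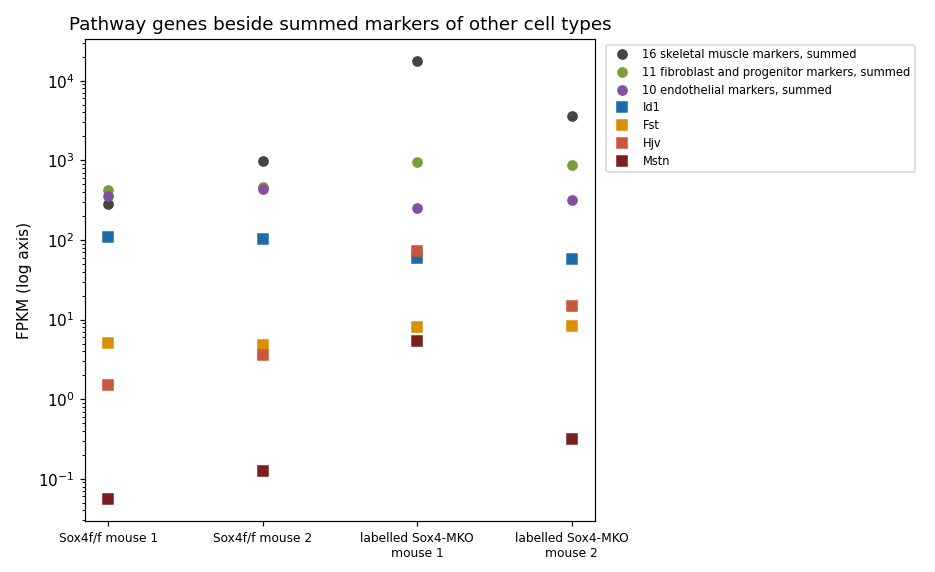
FPKM on a log axis in each library, for the summed markers of skeletal muscle, of fibroblasts and progenitors and of endothelium (circles) and for Id1, Fst, Hjv and Mstn (squares). The muscle sum, Hjv and Mstn are highest in the library labelled Sox4-MKO mouse 1, and Id1 is lower in both libraries labelled Sox4-MKO than in both Sox4f/f libraries; the endothelial sum is so too, but not without Egfl7.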

How the data were processed

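RNA sequencing libraries of brown fat from 2 Sox4f/f and 2 Sox4-MKO mice were grouped by the sample labels. The authors deposited FPKM values, 1 per gene and library, with 55387 rows, of which 55287 carry different symbols. The submitters' processing notes name Cufflinks 2.1.1, Cuffdiff and mm10. The aligner and the gene annotation are not given in the sources used here. The labels describe column extraction with DNase and a stranded mRNA kit, and the methods describe TRIzol and TruSeq. Counts were not used here, so the test was made on the FPKM values.

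A gene was tested where its mean exceeded 1 FPKM in one genotype or both, which is the filter of the study's methods. limma 3.58.1 in R 4.3.3 was run on log2(FPKM + 1), with a single term for genotype and a trended prior in eBayes. Genes are called at an unadjusted two-sided p under 0.05, the study's criterion, and Benjamini-Hochberg adjustment was made over all 12877 genes tested. The pseudocount of 1 makes the log2 fold changes of low genes too small, and ± after a log2 fold change gives the standard error. The code was tested on simulated data. Coordinates were taken from GENCODE M21 (GRCm38) by symbol, which matched all 52 genes. Since no depth is given, fragments were estimated from the lowest values of genes with 1 annotated transcript, at 13400000, 12100000, 12600000 and 16200000 in Sox4f/f mice 1 and 2 and Sox4-MKO mice 1 and 2. These are approximate.

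The genes and lists were chosen with earlier results of these data known. All of the 52 genes are accounted for, and other pathway genes are named where they were called without overlap between the genotypes, at most 3 per list and direction by size of change. Nbl1, Gpc3, Tgfbi, Ccn2, Ski and Skil are named outside that rule, after their values were seen. The older symbols Hfe2 and Ctgf of the lists were not matched and Hjv and Ccn2 were used. Alternatives were common median and quantile scaling, a common sum that leaves out Ucp1 and mitochondrially encoded genes, mean FPKM limits of 0.1, of 5 and none, pseudocounts of 0.1 and 0.01, a replicate block and leaving out each library. Figures were drawn with matplotlib 3.10.9.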

Additional observations from a re-analysis of the deposited data

How the results depend on the processing

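With 2 mice per genotype and FPKM without counts, the depth is an estimate, and low genes are measured on few fragments. The named genes, 51 in all, gave 648 values under 13 alternative settings, of which 560 kept direction and side of the threshold, 36 lost the call, 17 gained one and 35 changed sign. The sign changed in 18 genes, none of which was called. Id1 kept its call in each setting where it was fitted, and its adjusted p ranged from 0.126 to 0.705, against 0.193 to 0.705 for Fst, 0.176 to 0.705 for Gdf10, 0.271 to 0.707 for Smad1 and 0.276 to 0.707 for Ltbp1. Smad1 lost its call after the common sum, each other FPKM limit and the replicate block, and Ltbp1 after quantile normalization, no FPKM limit and the block. The difference between mouse 1 and mouse 2 had a correlation of -0.012 between the genotypes over genes. This correlation cannot decide whether same-numbered mice were paired, and the sources used here do not state a pairing by number. A replicate block moved the calls from 2090 to 1908 of all genes (938 lower and 970 higher). It left 5 of the 39 genes called, with Id3 and Eng in place of Smad1 and Ltbp1, and gave 17 of the other pathway genes. At an averaged FPKM above 5, 25 of the 39 genes were left, and their median log2 fold change was -0.099. With each library left out, all genes called ranged from 813 (without Sox4f/f mouse 1) to 2258, the 39 genes from 3 (without Sox4f/f mouse 2) to 7, their median from -0.066 to 0.058, the other pathway genes from 9 (without Sox4f/f mouse 1) to 16 and Sox4 from -0.32 to 0.71. All genes called were 1063 without Sox4f/f mouse 2. Log2 fold changes that changed sign were Bmp5 at -0.00076 after a common median; Bmp2 at -0.072, Bmp5 at -0.21, Acvr2a at -0.024 and Smad4 at 0.019 after quantile normalization; and Tgfbr2 at 0.0028, Smad4 at 0.056 and Smad5 at 0.0059 after the common sum. With each library left out, the ranges were -0.065 to 0.18 for Tgfbr1, -0.21 to 0.073 for Tgfbr2, -0.040 to 0.21 for Tgfbr3, -0.089 to 0.68 for Ltbp2, -0.28 to 0.066 for Ltbp3, -0.27 to 0.061 for Ltbp4, -0.068 to 0.34 for Bmp2, -0.16 to 0.19 for Bmp5, -0.29 to 0.093 for Bmpr2, -0.17 to 0.78 for Acvr1b, -0.30 to 0.35 for Acvr1c, -0.019 to 0.10 for Acvr2a, -0.075 to 0.50 for Acvr2b, -0.037 to 0.33 for Smad3, -0.18 to 0.15 for Smad4, -0.15 to 0.026 for Smad5, -0.45 to 0.14 for Smad6 and -0.038 to 0.71 for Tgfb2. The cause of these changes was not tested.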

Other observations

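The spread between mice of one genotype differed widely among the genes of the pathway. Mstn differed by 17.1 times between the mice labelled Sox4-MKO and by 2.24 times between the Sox4f/f mice. Bmp3 differed by 2.97 and 2.33 times in the same order, and Acvr1b by 2.31 and 1.07 times. For the inhibitory Smad6 the values were 1.62 and 1.33 times. Id3 went the other way, with 1.13 times between the mice labelled Sox4-MKO and 1.97 times between the Sox4f/f mice, as did Bmp6 with 1.02 and 1.49 times. Id1 was close in both genotypes, with 1.04 and 1.06 times. Groups of 2 are too small for a test of single libraries, and no result was singled out on that ground.

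The marker lists of further cell types were counted in the same way by limma, with directions given for the libraries labelled Sox4-MKO. Over all genes tested, 8.28% were lower and 7.95% higher. Of the general adipocyte markers tested, 3 of 8 were lower and none higher. Of the mast cell markers, 4 of 5 were higher, and of the B and T lymphocyte markers 2 of 4, namely Ighm and Trac. Ighm had 20.2 and 123 FPKM in mice 1 and 2 labelled Sox4-MKO against 7.16 and 9.22 FPKM in Sox4f/f. The other lymphocyte markers tested overlapped, and 7 more were below the tested level. Of the smooth muscle and pericyte markers, 1 of 9 was higher. The 1 tendon marker tested, Thbs4, passed the level of 1 FPKM only through the libraries in which it was high, and no direction is drawn from it. Of 6 Schwann cell and 5 red blood cell markers, none was called.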
